A study of Mus musculus with 10 samples.

Results

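TRBJ1-6 is a joining segment of the mouse T cell receptor beta locus, and its receptors were identified here by the CDR3 end PLYF (proline, leucine, tyrosine, phenylalanine), the germline end of that segment. Members were chosen by the end of the translated CDR3 alone, not by any count or level, because the J gene column never carried the name TRBJ1-6. It found 6833 rows with 9638 counts among 387286 clonotype rows with 754060 counts in 10 libraries. Rows assigned to the beta chain numbered 193012 with 266347 counts, so TRBJ1-6 made up 3.54% of beta rows. After rows with the same V gene and CDR3 nucleotides in a library were merged, 6821 clonotype entries remained. They held 6638 distinct nucleotide clonotypes and 6095 distinct amino acid clonotypes over all libraries.

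The libraries were made from total RNA of splenic regulatory T (Treg) cells that were used directly after isolation, with no treatment. Alpha and beta chain cDNA was amplified together. CNS4 is an enhancer that lies away from the Foxp3 promoter, and Foxp3 encodes the factor on which Treg identity depends. The design compared 5 libraries from mice without this enhancer (CNS4KO) with 5 from mice in which it is floxed (CNS4Flox), and the labels give no age, sex, Cre or further allele. The labels do not say whether the 5 libraries of a group came from separate animals, so p-values measure only the spread between these libraries, which may be technical. The tables hold receptor sequences and no other transcripts, so the Treg label could not be set against marker genes.

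A beta chain is assembled in the thymus by joining a V, a D and a J segment. At each joint, segment ends are trimmed and untemplated bases are added by terminal transferase, and the stretch so formed encodes the CDR3 loop, which contacts the peptide held by the MHC molecule. The TRBJ1 cluster lies between TRBD1 and TRBD2, so its members normally join to TRBD1. TRBJ1-6 is the last functional segment of that cluster.

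TRBJ1-6 lies on chromosome 6 at 41535554 to 41535606 in the RefSeq annotation of GRCm38.p6, a coding segment of 53 bases. The genome sequence itself was not used here, so the germline ends were read from the deposited CDR3s as the majority base at each position counted back from the CDR3 end. The ends of TRBJ1-6 and of the 3 segments whose CDR3 ends come closest to it are shown because they bear on how these receptors were named. All are written 5′ to 3′, and capitals mark the last 12 bases, which encode the last 4 residues.
TRBJ1-6: ttcctataattcgCCCCTCTACTTT
TRBJ2-5: aaccaagacACCCAGTACTTT
TRBJ2-2: caaacaccgggCAGCTCTACTTT
TRBJ2-4: agtcaaaacACCTTGTACTTT

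TRBJ1-6 contributed up to 25 bases to the CDR3, the longest germline part of the 12 TRBJ segments. Its last 6 bases are also those of TRBJ2-5, and its last 9 are those of TRBJ2-2. The deposited J name was TRBJ2-5 in 6700 of the 6833 rows (98.1%), TRBJ2-4 in 83, TRBJ2-2 in 20, TRBJ2-3 in 16, TRBJ1-3 in 11, TRBJ2-7 in 2 and TRBJ1-1 in 1. The deposited J start left 6 bases of J sequence in 6716 rows (98.3%), the stretch shared with TRBJ2-5, whereas a match to the TRBJ1-6 end covered 20 bases at the median.

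The label was checked against the nucleotides. A match of at least 12 bases to the TRBJ1-6 end was present in 6733 rows (98.5%), and the members just inside that length numbered 11 at exactly 12 bases and 12 at exactly 13. The end was itself derived from these rows, so the match is not independent of them. Of the remaining 100 rows, which held 154 counts, 69 ended in the last 9 bases of TRBJ2-4, 16 in those of TRBJ2-3 and 11 in those of TRBJ1-3, and 4 in none of these. The nucleotides of these 100 rows thus do not carry the TRBJ1-6 end. Leaving them out changed none of the adjusted calls among the 12 single values compared between the groups. The fits across segments, pairs and clonotypes were not rerun without them, nor were the within-library comparisons of V pairing and junctions. Just outside the rule were 10907 rows with the end LYF but not PLYF that matched 9 to 11 bases. The TRBJ2-2 end QLYF accounted for 10885 of them, and the other 22 held 36 counts.

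The TRBJ1-6 total per library ranged from 706 to 1315 counts and from 508 to 863 clonotypes, within beta totals of 19199 to 34833 counts. CNS4KO replicate 5 and CNS4Flox replicate 3 shared 31 TRBJ1-6 nucleotide clonotypes, compared with 1 to 11 in each of the other 44 pairs of libraries, so comparisons of the groups are also given without this pair where the value or call moved. Counts are as deposited, and the sources used here do not say whether they are reads or molecules. Intervals cover counting error only.

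By level, TRBJ1-6 was the second rarest of the 12 TRBJ segments. It held 3.62% ± 0.251 (SD, n = 10) of beta counts and 3.55% ± 0.182 (SD, n = 10) of distinct beta clonotypes, which is rank 11 of 12 on both scales. TRBJ1-2, the next more frequent, held 4.52% ± 0.214 of counts, and TRBJ1-5, the rarest, held 2.68% ± 0.171. TRBJ1-6 lay below TRBJ1-2 in 10 of 10 libraries and above TRBJ1-5 in 10 of 10 libraries, both by counts and by clonotypes. The most frequent segment was TRBJ2-7, with 19.1% ± 1.17 of counts.

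By counts, TRBJ1-6 took a slightly larger part of the beta repertoire in CNS4KO. The shares in CNS4KO replicates 1 to 5 were 3.93%, 3.68%, 3.76%, 3.54% and 4.08% of beta counts. In CNS4Flox replicates 1 to 5 they were 3.55%, 3.23%, 3.41%, 3.44% and 3.59%. The groups overlapped through CNS4KO replicate 4, and the other 4 CNS4KO libraries lay above every CNS4Flox library. The 95% Wilson interval of the highest library, CNS4KO replicate 5, was 3.86% to 4.30%, and that of the lowest, CNS4Flox replicate 2, was 3.04% to 3.43%. The means were 3.80% ± 0.210 (SD, n = 5) and 3.44% ± 0.141 (SD, n = 5), a difference of 0.353 percentage points with an exact two-sided permutation p of 0.0238. Adjusted over the 12 single values compared between the groups, p was 0.0571, which did not pass 0.05. Without CNS4KO replicate 4 the difference was 0.417 points (adjusted exact p = 0.0238), and without the pair that shared clonotypes it was 0.274 points (exact permutation p = 0.0857). A single clone held 0.622% of beta counts in CNS4KO replicate 1, and another held 0.439% in CNS4KO replicate 4. Each is more than the difference of 0.353 points, and the shares without these clones were not computed.

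Across the 12 TRBJ segments, edgeR's quasi-likelihood test called none at an adjusted p under 0.05 (0% called), and 1 of 12 (8.33%) had an unadjusted p under 0.05, which was TRBJ1-6. Its log2 fold change, CNS4KO over CNS4Flox, was 0.14 with a standard error of 0.048 and an adjusted p of 0.129 by edgeR. DESeq2 on the same counts called TRBJ1-6 alone, with an adjusted p of 0.0284, and edgeR called it with an adjusted p of 0.0480 when CNS4KO replicate 4 was left out. This share was known from earlier results of these data, so it is a description of the same libraries. As a share of all deposited counts, alpha chains included, the difference was 0.0697 percentage points (exact permutation adjusted p = 0.733).

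Counting each clonotype once, the difference was smaller. CNS4KO replicates 1 to 5 gave 3.69%, 3.69%, 3.78%, 3.37% and 3.74% of distinct beta clonotypes. CNS4Flox replicates 1 to 5 gave 3.53%, 3.22%, 3.49%, 3.40% and 3.60%. CNS4KO replicate 4 lay below 4 of the 5 CNS4Flox libraries, and the other 4 CNS4KO libraries lay above all of them. The means were 3.65% ± 0.162 and 3.45% ± 0.147 (SD, n = 5 each; exact permutation p = 0.0794, adjusted p = 0.136). Without CNS4KO replicate 4 the difference rose from 0.206 to 0.277 points (adjusted exact p = 0.0317). The edgeR fit on distinct clonotypes gave a log2 fold change of 0.08 with a standard error of 0.041 and an adjusted p of 0.762; it called 0 of 12 segments, none had an unadjusted p under 0.05, and DESeq2 also called 0.

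**Figure D1:**
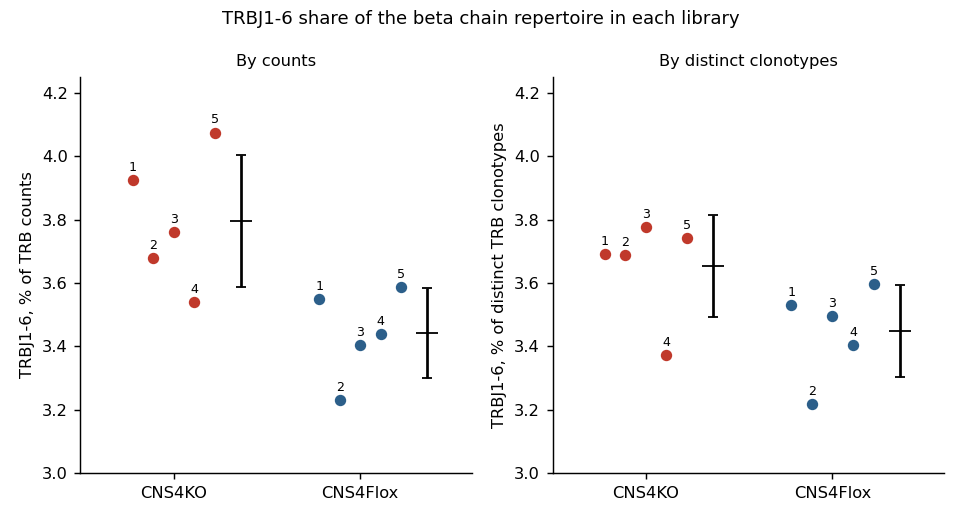
Share of TRBJ1-6 in each library, by beta counts (left) and by distinct beta clonotypes (right), in percent; points are libraries numbered by replicate, bars are the group mean ± SD (n = 5), and the axis starts at 3%. CNS4KO replicate 4 is the only CNS4KO library within the CNS4Flox range in either panel.

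TRBJ1-6 did not use the V segments in the proportions of its neighbours. For each of the 22 TRBV genes, the share among distinct TRBJ1-6 clonotypes was set against its share among TRBJ1-1 to TRBJ1-5 clonotypes of the same library. An exact sign-change test over the 10 libraries, whose smallest possible p is 0.00195, passed an adjusted p of 0.05 for 8 of 22 genes (36.4%), 4 higher and 4 lower in TRBJ1-6. The exact test treats the libraries of both groups together, and the direction of the mean difference was the same in CNS4KO and in CNS4Flox for all 8.

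The 4 genes used less often were TRBV3, the neighbours TRBV15 and TRBV16, and TRBV30. TRBV3 (chromosome 6, 41048394 to 41048824, GRCm38.p6), near its distal end, made up 2.83% ± 0.648 (SD, n = 10) of TRBJ1-6 clonotypes and 6.38% ± 1.08 of TRBJ1-1 to TRBJ1-5 clonotypes. Its share in TRBJ1-6 ran from 1.77% to 3.73%, below the lowest value of the other segments, 4.94%, in every library. TRBV15 (41141211 to 41141658), a segment whose products react with endogenous superantigens, made up 2.38% ± 0.543 against 5.20% ± 0.651, with ranges of 1.53% to 3.15% and 4.56% to 6.69%. For TRBV16 (41151791 to 41152230), another superantigen-reactive segment, the shares were 3.67% ± 0.845 and 5.56% ± 0.584. TRBV30 (41281376 to 41281990) was rare in both, at 0.280% ± 0.148 and 0.913% ± 0.172, and 1 library had none among its TRBJ1-6 clonotypes. All 4 were lower in 10 of 10 libraries, each with an adjusted exact p of 0.00859.

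The 4 genes used more often were TRBV12-1, TRBV19, TRBV4 and TRBV24. TRBV12-1 (41113567 to 41114067), like TRBV15 and TRBV16, is on the superantigen-reactive list given below. It made up 9.18% ± 2.12 of TRBJ1-6 clonotypes and 6.63% ± 1.31 of the comparison clonotypes (adjusted exact p = 0.0107, higher in 9 of 10 libraries). TRBV19 (41178589 to 41179048) made up 9.48% ± 1.52 against 7.52% ± 1.13 and was higher in 10 of 10 libraries (adjusted exact p = 0.00859). For TRBV4 (41059443 to 41059886) the shares were 3.997% ± 0.943 and 2.63% ± 0.443. For TRBV24 (41218091 to 41218557) they were 1.09% ± 0.515 and 0.644% ± 0.210. Both of these were higher in 9 of 10 libraries, each with an adjusted exact p of 0.0107. Reads of TRBV12-1 and of its near-identical neighbour TRBV12-2 may have been divided by the caller in a way that cannot be seen here, and TRBV12-2 itself gave 4.55% ± 1.19 against 3.98% ± 0.625 (adjusted exact p = 0.132).

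Set against all 11 other TRBJ segments, TRBJ1-6 had the lowest mean share of TRBV3, TRBV15, TRBV16 and TRBV30 and the highest mean share of TRBV12-1, TRBV19, TRBV4 and TRBV24, a description made after these 8 genes were known. The margins differed. For TRBV3 the next lowest was TRBJ1-4 at 5.05%, and for TRBV30 it was TRBJ1-3 at 0.546%. For TRBV15 it was TRBJ1-2 at 2.70%, close to the 2.38% of TRBJ1-6. For TRBV16 it was also TRBJ1-2, at 4.07% against 3.67%. TRBJ1-1, a part of the comparison pool, had the highest share of TRBV15 (7.63%) and of TRBV16 (6.58%). For TRBV4 the next highest was TRBJ2-4 at 3.93%, against 3.997%. It was TRBJ1-1 for TRBV12-1 (8.60% against 9.18%), TRBJ1-3 for TRBV19 (8.73% against 9.48%) and TRBJ1-2 for TRBV24 (0.967% against 1.09%). With TRBJ2-5, the segment whose name these receptors carried, as the comparison, 16 of 22 genes passed, and 7 of the 8 genes above were among them in the same direction. The exception was TRBV4, at a difference of 0.0907 percentage points (adjusted exact p = 0.75). Weighted by counts, TRBV4 did not pass either (adjusted exact p = 0.0525).

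**Figure D2:**
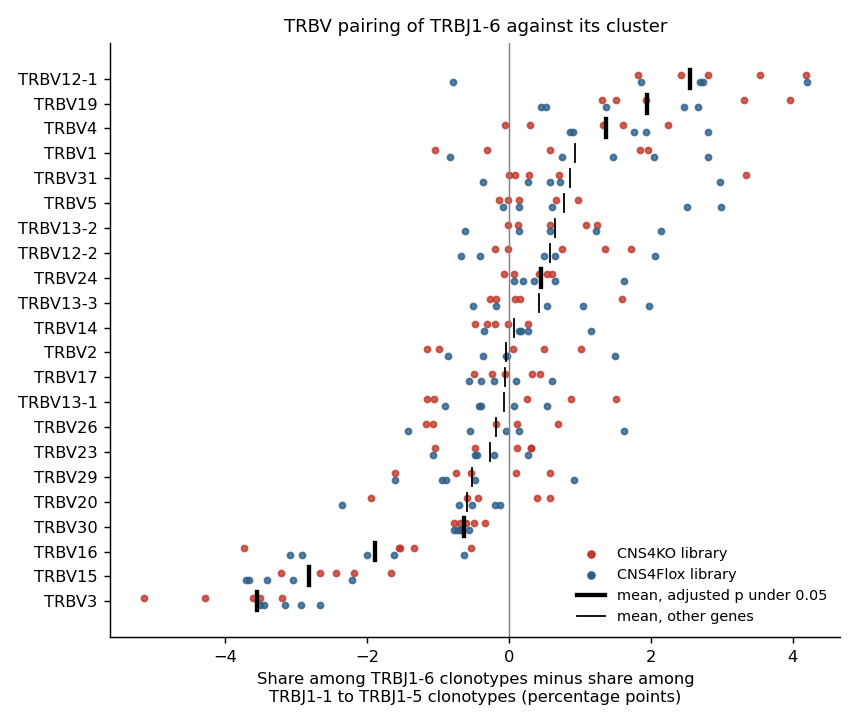
Share of each TRBV gene among distinct TRBJ1-6 clonotypes minus its share among TRBJ1-1 to TRBJ1-5 clonotypes of the same library, in percentage points; points are libraries, vertical bars the mean of 10, thick where the adjusted exact p is under 0.05. TRBV3, TRBV15, TRBV16 and TRBV30 lie below 0 in all 10 libraries, and TRBV19 lies above 0 in all 10.

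Further groups of V genes were read against the same comparison. Of TRBV1, TRBV13-2 and TRBV29, the V genes frequent in invariant NKT cells, 0 of 3 passed the test, and together they made up 16.5% ± 1.67 of TRBJ1-6 clonotypes and 15.5% ± 0.815 of the comparison clonotypes. The superantigen-reactive list of TRBV12-1, TRBV12-2, TRBV15 and TRBV16 was divided, with 1 of 4 higher and 2 of 4 lower. Of the distal genes TRBV1 to TRBV5, 1 of 5 was higher (TRBV4) and 1 of 5 lower (TRBV3). TRBV31, which lies downstream of the J clusters and joins by inversion, was the V gene with the largest share of TRBJ1-6 counts, at 14.01% ± 3.21, followed by TRBV19 at 9.35% ± 1.94 and TRBV12-1 at 8.52% ± 1.51. By distinct clonotypes TRBV31 made up 11.3% ± 2.44 of TRBJ1-6 and 10.5% ± 1.39 of the comparison (adjusted exact p = 0.0525).

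The TRBJ segments whose V profile came nearest to that of TRBJ1-6 were TRBJ1-4, TRBJ1-3 and TRBJ2-1. The measure was the summed absolute difference of V shares within a library divided by 2, averaged over 10 libraries, and it was 13.3 ± 1.30, 15.0 ± 2.14 and 15.5 ± 1.39 percentage points (SD). The farthest were TRBJ1-2 at 18.6 ± 2.22 and TRBJ1-5, the segment with the fewest clonotypes, at 17.4 ± 2.55. Sampling error adds to this distance, and its part was not tested.

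Between the groups, a single TRBJ1-6 pair was called by its share of the beta repertoire. All TRBV-TRBJ pairs were fitted together, and by distinct clonotypes edgeR called 3 of 249 pairs (1.2%) at an adjusted p under 0.05, while 9.64% had an unadjusted p under 0.05. Of the 19 TRBJ1-6 pairs tested, 1 was called, TRBV12-1 with TRBJ1-6. This pair held 59, 55, 70, 87 and 82 clonotypes in CNS4KO replicates 1 to 5. The 5 CNS4Flox replicates, in the same order, held 54, 75, 65, 30 and 48. As a share of distinct beta clonotypes that was 0.356% to 0.426% in CNS4KO and 0.173% to 0.306% in CNS4Flox, with no overlap. The log2 fold change was 0.57 with a standard error of 0.15 and an adjusted p of 0.0432 by edgeR, and 0.0262 by DESeq2. The edgeR call held in 1 of 10 fits that each left out a library, the fit without CNS4Flox replicate 2, with adjusted p between 0.0491 and 0.157, and it was lost without the pair that shared clonotypes.

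TRBV12-1 was also more frequent in CNS4KO among the other TRBJ segments, at 6.77% ± 0.431 of their clonotypes against 5.16% ± 0.424. Among TRBJ1-6 clonotypes the shares were 10.8% ± 1.10 and 7.59% ± 1.61. The log2 ratio of the TRBJ1-6 share to the share in the other segments, a contrast added after the data were seen, was 0.67 ± 0.15 in CNS4KO and 0.53 ± 0.38 in CNS4Flox (SD, n = 5), a difference of 0.13 (exact permutation p = 0.635). The change of TRBV12-1 between the groups was thus not shown to differ between TRBJ1-6 and the rest.

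By counts, edgeR called 1 of 253 pairs (0.395%) and 0 of 20 with TRBJ1-6, of which 3 had an unadjusted p under 0.05, against 8.7% of all pairs; DESeq2 called 0 of the 20. These 3 were TRBV12-1 with a log2 fold change of 0.47, TRBV26 with 0.70 and TRBV14 with -0.73, at adjusted p of 0.507, 0.507 and 0.559 by edgeR. Of the 20 pairs, 10 had a positive and 10 a negative log2 fold change, with a median of 0.01 against -0.05 over all 253. For TRBV26, CNS4KO libraries ranged from 0.188% to 0.557% of beta counts and CNS4Flox libraries from 0.169% to 0.245%, and a single clone of CNS4KO replicate 4 accounted for 153 counts there. Its log2 fold change was 0.40 without that library and -0.04 by distinct clonotypes. For TRBV14 the log2 fold change was -0.49 without CNS4Flox replicate 4, where 11 of its 25 counts belonged to a clone that kept 6 J bases and ended as TRBJ2-4.

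The junctions of TRBJ1-6 depended on the segment they were measured against. With the deposited positions, the mean number of bases outside the V, D and J matches was 16.3 per junction, and none of the 6821 entries had 0. With the J part matched to TRBJ1-6 itself, the mean was 3.24 and 11.6% of entries had none. The same re-matching left TRBJ1-1 to TRBJ1-5 at 3.21 against 3.23 as deposited, and TRBJ2-5 at 3.33 against 3.45. The share with no inserted base rose in these sets too, from 0.951% to 9.97% and from 0.616% to 9.02%. That share thus depends on the matching used here, in which a D match needed 3 bases, and not on the J name alone. The D call was touched as well. The deposited D match reached into the TRBJ1-6 sequence in 39.3% of entries, compared with 0.00185% of TRBJ1-1 to TRBJ1-5 entries.

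A D name read from J bases does not show which D segment was joined, so D names were counted over the 4143 entries whose D match lay outside the J part. There TRBD1 was named in 3791, TRBD2 in 349 (8.42%) and no D in 3. TRBD2 was named in 8.68% of TRBJ1-1 to TRBJ1-5 entries and in 45.9% of TRBJ2-5 entries counted the same way. A D match of at least 3 bases outside the J part was lacking in 15.1% of TRBJ1-6 entries and in 11.9% of TRBJ1-1 to TRBJ1-5 entries.

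TRBJ1-6 CDR3s were longer on average than those of TRBJ1-1 to TRBJ1-5 as a pool. The mean was 14.1 ± 0.0535 residues (SD, n = 10) against 13.6, a difference of 0.511 residues in the same direction in 10 of 10 libraries (adjusted exact sign-change p = 0.00521 over 8 measures). The gap was small against TRBJ1-3 (13.99 residues) and TRBJ1-4 (13.96) and came mainly from TRBJ1-1 (13.21), TRBJ1-2 (13.39) and TRBJ1-5 (13.52). Lengths ran from 8 to 33 residues with a median of 14. CDR3s of 17 residues or more made up 3.20% of TRBJ1-6 entries and 0.903% of TRBJ1-1 to TRBJ1-5 entries, and those of 11 or fewer made up 2.16% and 5.33%.

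Against the same pool, the added length lay in the J part. TRBJ1-6 kept 20.3 ± 0.103 germline bases against 18.7, a difference of 1.61 bases (higher in 10 of 10 libraries, adjusted exact p = 0.00521). TRBJ1-3 on its own kept as many, 20.37 ± 0.0578 (TRBJ1-6 lower in 7 of 10 libraries), and TRBJ1-4 kept 19.75 ± 0.0702. The bases outside the J part numbered 21.95 ± 0.138 against 22.03, a difference of -0.0748 bases that did not pass (adjusted exact p = 0.145) but did when CNS4Flox replicate 2 was left out (0.0375). Against TRBJ2-5 the difference was -1.40 bases (adjusted exact p = 0.00313). Of its 25 bases TRBJ1-6 had lost 4.67 on average, more than any other TRBJ segment, for which the loss ranged from 1.63 bases in TRBJ1-3 to 3.53 in TRBJ2-7. The full 25 bases were kept in 1176 entries (17.2%), and the most frequent kept length was 18 bases, at 20.9% ± 2.05 of clonotypes per library. The TRBJ1-6 values here include the 100 rows that do not carry its end. In those rows, J bases of another segment count as lost and as outside the J part.

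The number of inserted bases did not differ beyond the spread, at 3.24 ± 0.142 against 3.21 (difference 0.0222, adjusted exact p = 0.502). The TRBJ1-6 mean includes the 100 rows that do not carry its end, where J bases of another segment can count as inserted. The largest clone of CNS4Flox replicate 4, for example, kept 6 J bases and was given 16 inserted bases. What these rows add to the difference was not tested. Junctions with no inserted base made up 11.7% ± 1.76 of TRBJ1-6 clonotypes and 9.996% of the comparison, a difference of 1.69 percentage points (higher in 9 of 10 libraries, adjusted exact p = 0.00781). Against TRBJ2-5 this difference was 2.63 points (adjusted exact p = 0.00313), and TRBJ1-6 then had fewer inserted bases, by a difference of -0.0966 (adjusted exact p = 0.0417).

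**Figure D3:**
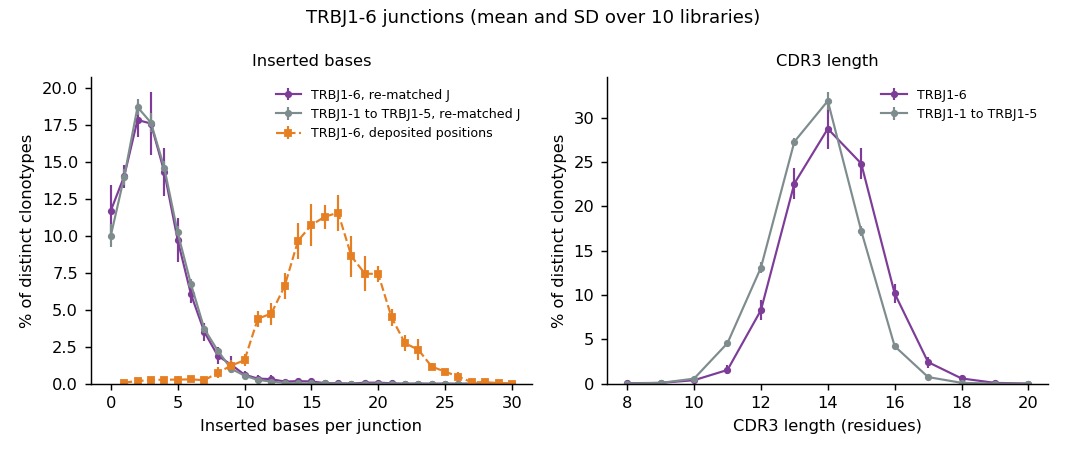
Inserted bases per junction (left) and CDR3 length in residues (right) as percent of distinct clonotypes; points and bars are the mean and SD over 10 libraries for TRBJ1-6 and for TRBJ1-1 to TRBJ1-5, and the dashed line shows TRBJ1-6 with the deposited J and D positions. The deposited positions centre near 16 inserted bases, whereas the re-matched junctions of both sets centre near 3, and the TRBJ1-6 lengths lie to the right of the comparison.

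None of the junction measures passed between the genotypes. Junctions without inserted bases made up 10.5%, 12.2%, 14.5%, 14.3% and 12.2% of TRBJ1-6 clonotypes in CNS4KO replicates 1 to 5. In CNS4Flox replicates 1 to 5 they made up 9.86%, 10.5%, 9.12%, 11.7% and 12.1%. CNS4KO replicate 1 lay within the CNS4Flox range and the other 4 CNS4KO libraries lay above it. The means of 12.7% ± 1.67 and 10.7% ± 1.24 differed by 2.06 points (exact permutation p = 0.0476, adjusted p = 0.0952), and by 2.62 points without CNS4KO replicate 1 (adjusted exact p = 0.0317). Inserted bases averaged 3.18 ± 0.159 in CNS4KO and 3.29 ± 0.115 in CNS4Flox (adjusted exact p = 0.333). CDR3 length averaged 14.1 ± 0.0476 and 14.1 ± 0.0522 residues (difference -0.0484, adjusted exact p = 0.222), and kept J bases 20.3 ± 0.113 and 20.3 ± 0.104 (adjusted exact p = 0.833).

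Clone sizes of TRBJ1-6 receptors separated the groups. Counts per clonotype were 1.79, 1.39, 1.52, 1.74 and 1.52 in CNS4KO replicates 1 to 5. They were 1.17, 1.26, 1.31, 1.22 and 1.21 in CNS4Flox replicates 1 to 5. Every CNS4KO library lay above every CNS4Flox library, with means of 1.59 ± 0.167 and 1.23 ± 0.0559 (SD, n = 5). The exact permutation p was 0.00794, the smallest that 5 against 5 libraries allow, and 0.0238 after adjustment over the 12 values.

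The share of clonotypes with a single count was 68.6%, 78.3%, 76.5%, 74.7% and 74.5% in CNS4KO replicates 1 to 5. For CNS4Flox replicates 1 to 5 it was 87.7%, 80.5%, 79.3%, 85.9% and 84.5%. The groups did not overlap, and the means were 74.5% ± 3.67 and 83.6% ± 3.59. Richness, the number of clonotypes expected when each library is thinned to 706 TRBJ1-6 counts, was 441 to 529 in CNS4KO and 582 to 611 in CNS4Flox, with means of 486 ± 36.1 and 592 ± 11.6. The Simpson concentration, the probability that 2 counts drawn from a library belong to the same clonotype, was 0.0261, 0.00169, 0.00671, 0.0169 and 0.00190 in CNS4KO replicates 1 to 5, and it ran from 0.000593 to 0.000885 in CNS4Flox. For all 3 measures the exact permutation p was 0.00794 (adjusted p = 0.0238).

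Clonotypes with 10 counts or more numbered 23 in CNS4KO and 4 in CNS4Flox, or 22 and 3 of those with at least 12 bases of the TRBJ1-6 end. They held 12.2% ± 7.50 of TRBJ1-6 counts per CNS4KO library and 1.15% ± 0.733 per CNS4Flox library, whereas clonotypes with a single count held 47.3% ± 6.96 and 67.9% ± 5.88. Without the pair that shared clonotypes, each of the 4 clone size measures kept its direction with no overlap, and the exact permutation p was 0.0286, the smallest that 4 against 4 allow, which is 0.0857 after adjustment. Leaving out any 1 of the CNS4Flox libraries ended the adjusted call for counts per clonotype (adjusted exact p = 0.0635) and Simpson concentration (0.0952 to 0.133). For the single-count share and richness, the call ended without CNS4Flox replicate 1 or 4 (adjusted exact p = 0.0635). The groups still did not overlap in any of these comparisons.

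These clone size differences were not shown to be particular to TRBJ1-6. TRBJ1-1 to TRBJ1-5 clonotypes averaged 1.53 ± 0.194 counts in CNS4KO and 1.22 ± 0.0722 in CNS4Flox, and all beta clonotypes 1.53 ± 0.138 and 1.24 ± 0.0712. The log2 ratio of TRBJ1-6 counts per clonotype to those of TRBJ1-1 to TRBJ1-5 in the same library was 0.06 ± 0.060 in CNS4KO and 0.01 ± 0.020 in CNS4Flox, a difference of 0.05 (exact permutation p = 0.0952, adjusted p = 0.143) that passed only without CNS4KO replicate 1 among the fits leaving out 1 library (0.06, adjusted exact p = 0.0317). Over all 10 libraries, TRBJ1-6 clonotypes were slightly larger than the comparison, at 1.41 against 1.38 counts (higher in 8 of 10 libraries, adjusted exact sign-change p = 0.0375), and the call held in 3 of 10 comparisons that each left out a library, those without CNS4KO replicate 1, CNS4Flox replicate 2 or CNS4Flox replicate 3 (adjusted exact p = 0.0125 to 0.075 over the 10). Against TRBJ2-5 it did not pass (adjusted exact p = 0.174).

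**Figure D4:**
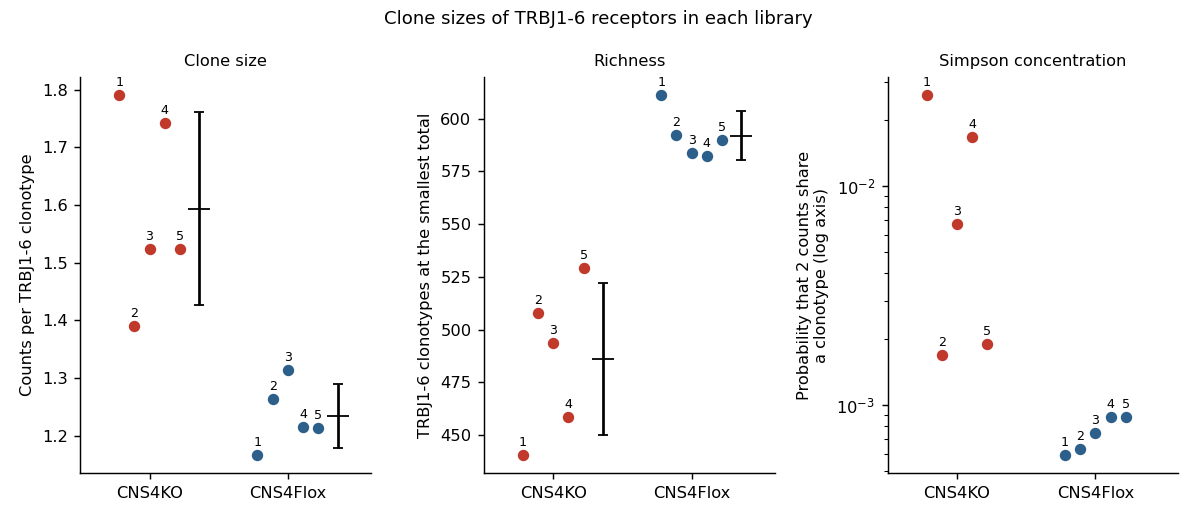
Counts per TRBJ1-6 clonotype (left), TRBJ1-6 clonotypes expected at 706 counts (middle) and Simpson concentration on a log axis (right) in each library; points are libraries numbered by replicate and bars the group mean ± SD (n = 5, left and middle panels). The groups do not overlap in any panel, and CNS4KO replicates 1, 3 and 4 have the highest Simpson values.

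The largest TRBJ1-6 clone of each group and the largest of CNS4KO replicates 3 and 4, the latter pair chosen after their values were seen, are shown because they set the top of the clone size range. Capitals mark the germline TRBJ1-6 bases.
CNS4KO replicate 1, TRBV4: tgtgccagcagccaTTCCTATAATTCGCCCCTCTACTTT
CNS4KO replicate 4, TRBV26: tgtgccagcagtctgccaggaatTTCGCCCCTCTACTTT
CNS4KO replicate 3, TRBV31: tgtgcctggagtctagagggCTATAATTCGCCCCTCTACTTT
CNS4Flox replicate 5, TRBV31: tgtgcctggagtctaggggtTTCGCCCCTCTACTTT

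The TRBV4 clone of CNS4KO replicate 1 kept all 25 J bases, held 168 counts and was found in no other library. It made up 15.8% of TRBJ1-6 counts and 0.622% of beta counts of its library (95% Wilson interval 0.535% to 0.723%). The TRBV26 clone of CNS4KO replicate 4 held 153 counts, 12.4% of the TRBJ1-6 counts there, and the TRBV31 clone of CNS4KO replicate 3 held 69, or 7.29%. Both were found in 1 library. The largest clones of CNS4KO replicates 2 and 5 held 10 and 26 counts. In CNS4Flox the largest clones held 9 to 15 counts. That of replicate 4, with 11 counts, is a TRBV14 clone with the nucleotide end of TRBJ2-4, and the largest there with at least 12 bases of the TRBJ1-6 end held 6. In replicate 5, the TRBV31 clone made up 1.94% of TRBJ1-6 counts and 0.0696% of beta counts (0.0422% to 0.115%). The 3 clones above 50 counts were thus all in CNS4KO, and CNS4KO replicates 2 and 5 held none of them.

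Few TRBJ1-6 receptors recurred between libraries. Of 6095 amino acid clonotypes, 507 (8.32%) were found in at least 2 libraries, 93 in at least 3 and 13 in at least 5, and none in more than 7. At the nucleotide level 164 of 6638 (2.47%) were found in at least 2 libraries and none in more than 4. Both totals include the 50 amino acid and 31 nucleotide clonotypes shared by CNS4KO replicate 5 and CNS4Flox replicate 3. Within a library, 17.1% ± 1.99 of TRBJ1-6 amino acid clonotypes were also found in another library, compared with 21.8% for TRBJ1-1 to TRBJ1-5 (difference -4.71 percentage points, lower in 10 of 10 libraries, adjusted exact p = 0.00521). The segments of that pool differed: TRBJ1-4, at 16.3% ± 0.656, lay above TRBJ1-6 in 5 of 10 libraries and below it in 5, and TRBJ1-5, at 12.4% ± 1.62, lay below it in all 10, whereas TRBJ1-1, TRBJ1-2 and TRBJ1-3 lay above it in all 10. The chance to recur also depends on how many clonotypes a set holds, and its part in this difference was not tested. More than 1 nucleotide sequence encoded 432 of the amino acid clonotypes (7.09%), with up to 6 sequences for a single clonotype.

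Recurrent clonotypes had shorter junctions, which is given as a description. Entries found in 1 library carried 3.54 inserted bases on average, those found in 2 carried 1.97 and those found in 3 or more carried 1.47. The shares with no inserted base were 8.48%, 22.5% and 35.8%, and the mean lengths 14.2, 13.8 and 13.6 residues. TRBJ1-1 to TRBJ1-5 entries had the same order, with 3.58, 2.15 and 1.64 inserted bases. Their shares with no inserted base were 6.42%, 18.5% and 27.6%, and their mean lengths 13.7, 13.3 and 13.1 residues. At equal counts, a pair of CNS4KO libraries shared 11.5 TRBJ1-6 amino acid clonotypes on average and a pair of CNS4Flox libraries 12.4. The difference was -0.809 (exact permutation p = 0.706, adjusted p = 0.771). The direction changed without thinning and with nucleotide clonotypes.

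The 5 amino acid clonotypes found in the most libraries are shown by their most widespread nucleotide sequence, with capitals for the germline TRBJ1-6 bases, because they are the receptors that the libraries most often had in common.
TRBV31 in 7 libraries: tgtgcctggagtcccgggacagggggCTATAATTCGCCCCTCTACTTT
TRBV12-1 in 6 libraries: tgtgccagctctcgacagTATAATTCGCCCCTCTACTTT
TRBV31 in 6 libraries: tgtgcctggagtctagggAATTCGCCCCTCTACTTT
TRBV1 in 6 libraries: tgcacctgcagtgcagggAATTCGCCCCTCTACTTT
TRBV5 in 6 libraries: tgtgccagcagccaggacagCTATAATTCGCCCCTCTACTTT

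The first of these contains 11 of the 12 bases of TRBD1 (gggacagggggc, assembled from the deposited D matches) and 2 inserted bases. It was encoded by 5 nucleotide sequences and held 9 counts in all, from 3 CNS4KO and 4 CNS4Flox libraries. The TRBV12-1 clonotype had no inserted base in the sequence shown and held 17 counts, 10 of them in CNS4KO replicate 2, from 3 libraries of each group. The second TRBV31 clonotype also had no inserted base and held 15 counts, 8 of them in CNS4KO replicate 5. The TRBV1 and TRBV5 clonotypes held 9 and 7 counts, with 2 and 0 inserted bases, and no more than 2 counts in any library.

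In the fit over all beta amino acid clonotypes found in at least 5 libraries, edgeR called 0 of 666 (0% called), 37 (5.56%) had an unadjusted p under 0.05, and DESeq2 called 0. Of these, 13 carried TRBJ1-6, and none of the 13 had an unadjusted p under 0.05. The smallest was a TRBV26 clonotype with an adjusted p of 0.851 by edgeR. The standard errors of the 13 log2 fold changes ran from 0.98 to 1.26. That TRBV26 clonotype had a log2 fold change of 2.44 and was not called, so differences of that size could be missed at this depth.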

How the data were processed

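Each library came as a table of clonotypes. Counts per clonotype and their fraction of the library are as deposited by the authors, as are the V, D and J names and the match positions per the file headers; the fraction column was not used further. The submitters' processing notes name mm10. The clonotype caller, and whether counts are reads or molecules, are not given in the sources used here.

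The beta chain was assigned from the last 4 CDR3 residues, and members and gene lists were chosen with earlier results of these data known. Named V genes are the 3 with the largest share of TRBJ1-6 counts, those past an adjusted p of 0.05 in the V pairing comparison or in the pair fits (otherwise the smallest p), and the listed genes; named clonotypes are the 5 in the most libraries and the largest of each group. The germline J end was the majority base over CDR3s with that end, and a D match needed 3 bases. Single values were compared by exact permutation of the 252 assignments, within-library differences by 1024 sign changes, both two-sided with Benjamini-Hochberg adjustment. Fits across segments, pairs (at least 10 counts in 5 libraries) and clonotypes used edgeR 4.0.16 (quasi-likelihood, library size the beta total) in R 4.3.3, with DESeq2 1.42.0 as an alternative. The edgeR fits were also run on simulated counts with planted log2 changes of 1, or 4 for clonotypes. These exceed the changes seen for TRBJ1-6 and its pairs, so that run does not show the power at the sizes seen here. Other steps used Python 3.11.15, numpy 2.4.6 and pandas 2.3.3. The labels give no replicate numbers, so replicates are numbered in accession order, and no batch or date.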

Additional observations from a re-analysis of the deposited data

Results flagged for a closer look

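With 22 groups of 5 libraries examined, 2 values lay far from the rest of their group, and chance alone flags about 1 in 20. The TRBJ1-6 share of distinct beta clonotypes in CNS4KO replicate 4, 3.37%, lay below the other 4 CNS4KO libraries by 0.780 of the group's range. The log2 ratio of TRBJ1-6 to TRBJ1-1 to TRBJ1-5 counts per clonotype in CNS4Flox replicate 3, -0.0216, lay below the other 4 CNS4Flox libraries by 0.721 of the range.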

How the results depend on the processing

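Differences are CNS4KO minus CNS4Flox. Without the pair of libraries that shared clonotypes, the differences were 0.396 for counts per clonotype, -10.1 points for the single-count share, -119 for richness and 0.0121 for Simpson concentration, none past an adjusted p of 0.05; the count share differed by 0.274 and the log2 clone size contrast by 0.0153, kept J bases turned to 0.0414, and 0 pairs by counts and 1 pair by clonotypes were called. Without single-count clonotypes of TRBJ1-6, its counts as a share of all beta counts differed by 0.900 points (adjusted exact p = 0.0190). The beta total there still held the single-count clonotypes. That value thus includes the clone size difference between the groups and is not a share among larger clones. In the same setting length differed by 0.101, kept J bases by 0.0152, Simpson by 0.0249 and counts per clonotype by 0.881. The clonotype share differed by 0.120, insertions by -0.00641 and the zero-insert share by 1.34. Weighting by counts gave 0.0814 for kept J bases, deposited positions 0 for the zero-insert share, no thinning -47.4 for richness and 3.2 for shared clonotypes, and nucleotide clonotypes 0.507 for the latter. V pairing against TRBJ2-5 called 16 genes. DESeq2 called 1 segment by counts, 2 pairs by counts and 5 by clonotypes. Leaving out single libraries gave 0.284 to 0.417 (count share), 0.149 to 0.277 (clonotype share), -0.0667 to -0.0315 (length), -0.157 to -0.0562 (insertions), 1.62 to 2.62 (zero-insert), -0.0480 to 0.0225 (kept J bases), 0.310 to 0.410 (counts per clonotype), -10.1 to -7.56 (single counts), -117 to -94.6 (richness), 0.00605 to 0.0121 (Simpson, which lost its call without any 1 CNS4Flox library), -1.88 to 0.0537 (shared clonotypes) and 0.0242 to 0.0646 (clone size contrast). The calls ranged from 0 to 1 segment and 0 to 2 pairs by counts, 1 to 3 pairs by clonotypes, 8 to 9 V genes and 4 to 6 junction measures; 0 segments by clonotypes and 0 amino acid clonotypes were called in any of these fits. The cause was not tested. No paired analysis was possible because the labels give no replicate numbers that the groups share. Depth limits single clonotypes most.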
